A study of Mus musculus with 12 samples.

Results

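High affinity and low affinity B cells of the germinal centre light zone were compared by microarray, using 3 LZ_high and 3 LZ_low arrays out of 12 in the series. SwHEL B cells, which carry a receptor for hen egg lysozyme and the congenic marker CD45.1, had been given to C57BL/6J mice (CD45.2). The mice were immunized with the lysozyme mutant HEL3x on sheep red blood cells, and spleens were taken on day 10 from females. All 4 groups were sorted as donor cells that were IgG1+ and CD38 low, so all had switched class and carried the same transgenic starting receptor. Light zone (LZ) cells were CD86 high and CXCR4 low, dark zone (DZ) cells were CXCR4 high and CD86 low, and each zone was split into high and low affinity. Neither the gate that defined affinity nor the number of mice behind each array is stated, so a p-value here reflects the scatter of the samples alone, and that scatter may be technical. A suffix of the sample descriptions was read as placing 1 array of every group in each of 3 matched sets. What the suffix marks is not stated. The arrays are named here by group and set.

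In the germinal centre, B cells divide and mutate their receptor genes in the dark zone and then test the new receptor in the light zone. There they take antigen from follicular dendritic cells through the receptor, present it on MHC class II, and compete for help from T follicular helper cells through CD40 and cytokines. Help induces Myc and a growth programme before the cell returns to division, while other light zone cells leave as memory or plasma cells or die.

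The light zone label held for its sort marker and for the usual light zone genes. Cd86, the co-stimulatory ligand used in the sort, lay at 10.81 or above on the log2 scale in all 6 LZ arrays and at 10.41 or below in all 6 DZ arrays. Cd83, which encodes an activation marker that stabilizes MHC class II, averaged 9.68 in LZ_high and 10.04 in LZ_low against 8.17 and 8.34 in DZ_high and DZ_low. Cxcr4, the chemokine receptor that holds cells in the dark zone, averaged 10.21 and 10.50 in LZ_high and LZ_low and 10.96 in DZ_low, with DZ_high just above that. Array medians lay between 5.57 and 5.72. The 4 arrays of set 3 stood apart on the first principal component (40.1% of the variance; scores from 12.48 to 52.92 against -26.38 to -6.71 for the others), and the mean correlation of an array with the others was lowest for LZ_high set 3, at 0.8968. Results are therefore also given without set 3. Not tested were Prdm1, which was too dim, and Cd38 and Ighg1, which share their probe sets with other genes or have none. In sorted bulk samples, fewer cells of a type and less RNA per cell cannot be told apart.

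The first question was which genes differ with affinity inside the light zone. No gene passed the threshold: of 11206 tested genes, 0 (0%) had a Benjamini-Hochberg adjusted p below 0.05 in limma, and the smallest adjusted p was 0.784. At an unadjusted p below 0.05 there were 466 genes (4.16%), of which 196 were higher and 270 lower in LZ_high. That balance depended on single arrays: without set 3 there were 358 higher and 167 lower, and without LZ_high set 1 there were 307 higher and 662 lower. With matched set as a replicate block, limma also called 0 genes, with a smallest adjusted p of 0.464 and 891 genes at an unadjusted p below 0.05 (7.95%). Genes below are therefore described by their values, and the words higher and lower state a difference between group means and not a called change.

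Only an analysis that weights the arrays made calls. limma's array weights let each array count by how closely it follows its group, and its iteration stopped before reaching its convergence tolerance. LZ_high set 2 received a weight of 9.15, LZ_high set 1 received 0.75 and LZ_high set 3 received 0.213, so set 2 carried most of the LZ_high mean. With these weights 103 genes had an adjusted p below 0.05, 52 higher (0.464%) and 51 lower (0.455%) in LZ_high. The groups did not overlap for 79 of the 103, against 4.32% of all tested genes in the higher and 4.49% in the lower direction. The 103 were chosen by a test on these same arrays, so this count is no separate support. Such adjusted p-values are named below as weighted, and passed, missed or called with weights refers to them alone. The differences and SEs printed beside them are those of the unweighted fit, so a weighted p does not test the printed difference. The weights were estimated from these same arrays, and no other alternative called a gene in the light zone. Weighted p-values are therefore given as description and not as support for a gene.

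Among the genes with lower values in LZ_high were Cd2, Serpinb1a and Arhgef3. Cd2, an adhesion receptor that binds CD48, had values of 9.27, 9.80 and 9.33 in LZ_high sets 1 to 3 and 10.43, 10.43 and 10.87 in LZ_low. Every LZ_low array exceeded every LZ_high array, as it did for 4.49% of all tested genes in this direction. The difference for Cd2 was -1.11 ± 0.19 (log2, SE, n = 3 per group; limma adjusted p = 0.784; weighted adjusted p = 0.034). Serpinb1a, an inhibitor of neutrophil serine proteases, had 5.79, 6.35 and 5.72 in LZ_high and 7.87, 8.03 and 7.33 in LZ_low, and was the gene with the largest lower difference among those lower in 3 of 3 sets. Its groups were separated by almost a full log2 unit, and its difference was -1.79 ± 0.35 (weighted adjusted p = 0.020). Arhgef3, a guanine nucleotide exchange factor, had 6.10, 6.03 and 5.60 in LZ_high and 7.09 or 7.43 in LZ_low sets 2 and 3, with 6.91 in set 1. Its groups did not overlap either, with a difference of -1.23 ± 0.22 (weighted adjusted p = 0.020).

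Genes linked to the memory fate were among these. Hhex, a homeobox factor needed for memory B cells to form from the germinal centre, had 7.99, 7.97 and 7.12 in LZ_high and 8.98, 9.01 and 8.54 in LZ_low. The groups were apart in each set, the difference was -1.15 ± 0.30, and the weighted adjusted p was 0.032. Ccr6, the receptor for CCL20 and a marker of memory precursors, had 5.01, 5.13 and 5.28 in LZ_high and 5.64, 6.01 and 6.00 in LZ_low. The difference was -0.74 ± 0.18. Ccr6 lay at or above the array median in the LZ_low arrays alone, so it was tested only because of the group in which it is high, and no p is given for it. Fcer2a, the low-affinity IgE receptor CD23, was bright, with 10.19, 10.02 and 10.17 in LZ_high and 10.91, 10.81 and 11.06 in LZ_low. Its spread within each group was small beside the difference of -0.80 ± 0.18 (weighted adjusted p = 0.025).

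Among the genes with higher values in LZ_high were Eef1e1, Cmss1 and Tnfsf9, also named with results of these arrays known. Eef1e1, a scaffold protein of the aminoacyl-tRNA synthetase complex, had 9.74, 9.94 and 10.13 in LZ_high and 9.12, 9.21 and 8.99 in LZ_low. All LZ_high arrays exceeded all LZ_low arrays, as they did for 4.32% of tested genes in this direction, and the difference was 0.83 ± 0.17 (weighted adjusted p = 0.025). Cmss1, a member of the ribosome biogenesis list, had 7.73, 8.06 and 8.31 against 7.18, 6.78 and 7.04, a difference of 1.04 ± 0.21 (weighted adjusted p = 0.020). Tnfsf9, which encodes the co-stimulatory 4-1BB ligand, had 7.87, 7.31 and 8.24 against 7.05, 6.22 and 6.57. Its groups did not overlap, and the difference of 1.20 ± 0.29 was not called with weights (adjusted p = 0.096).

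**Figure D1:**
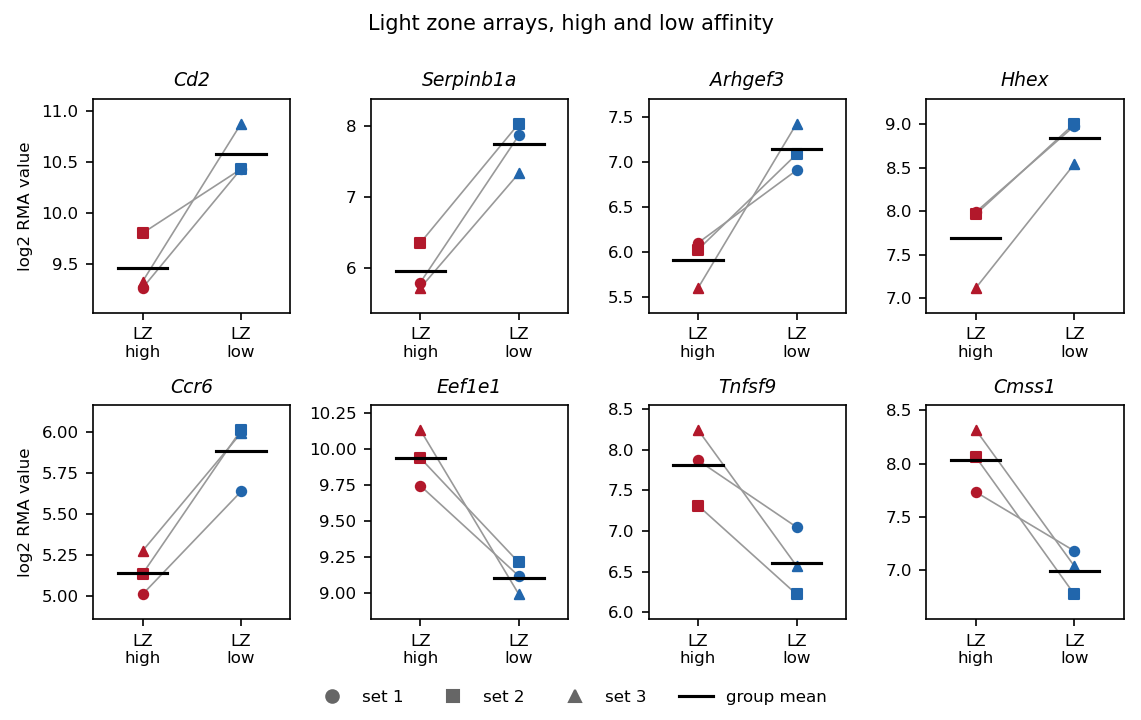
Log2 RMA value (y axis) of 8 genes in the LZ_high and LZ_low arrays (x axis), with circles, squares and triangles for matched sets 1, 2 and 3, grey lines joining the arrays of a set and black bars at the group means. Each y axis has its own range. In all 8 panels the 3 LZ_high arrays lie on 1 side of the 3 LZ_low arrays, which follows largely from how the genes were chosen.

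Other genes with the smallest p in either direction are described next. They were chosen by p and by 1 sign in all 3 sets on these same arrays, so separated groups follow largely from that choice. On the lower side, B3gnt5, a glycosyltransferase that builds lacto-series glycolipids, had 6.60, 6.40 and 5.90 in LZ_high and 8.09, 7.57 and 7.15 in LZ_low (-1.31 ± 0.29; weighted adjusted p = 0.020). Pdcd4, an inhibitor of translation initiation, had 8.27, 8.34 and 8.38 against 9.50, 9.22 and 9.78 (-1.17 ± 0.29; weighted adjusted p = 0.031). Sirpa, the receptor for CD47, had 6.70, 7.18 and 6.05 against 7.80, 7.91 and 7.82 (-1.20 ± 0.25; weighted adjusted p = 0.058). Sirpa thus missed the weighted threshold, while Fam102a, the myosin gene Myo1f and Dnmbp, a scaffold for Cdc42 activation, passed it with differences of -0.99, -0.73 and -0.80 (Dnmbp -0.50 without set 3). The urea transporter gene Slc14a1 had 5.84, 5.82 and 5.47 against 7.02, 6.68 and 8.44, so its difference of -1.67 ± 0.35 drew on the high value of LZ_low set 3, and was -1.02 without set 3.

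On the higher side, Bub1b, a kinase-like component of the spindle checkpoint, had 9.91, 9.94 and 10.03 in LZ_high and 9.25, 9.44 and 9.23 in LZ_low (0.65 ± 0.16; weighted adjusted p = 0.032). Cenph, a kinetochore protein, had 9.70, 9.76 and 9.99 against 9.24, 8.77 and 9.22 (0.74 ± 0.18; weighted adjusted p = 0.034). Rpp25, a subunit of the tRNA- and rRNA-processing enzymes RNase P and MRP, had 5.66, 6.28 and 5.81 against 4.80, 5.18 and 5.13 (0.88 ± 0.22; weighted adjusted p = 0.020). Syce2, Cks1b and the mitochondrial chaperone gene Hspa9 also passed with weights, at differences of 0.54, 0.58 and 0.51, while Stil, needed for centriole duplication, stood just outside at 0.66 (weighted adjusted p = 0.0503).

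Several of the largest differences rested on 1 array. Nudt2 had 9.44 in LZ_high set 3 and 6.02 to 6.91 in the other LZ arrays, and its difference of 1.40 ± 0.57 became 0.39 without set 3. Brms1l had 5.91 in LZ_high set 3 and 9.54 to 9.81 in the others, and its difference of -1.32 ± 0.77 became -0.17. Igha, the IgA constant region, had 9.05 in LZ_low set 3 and 4.92 to 5.84 in the others, giving -1.45 ± 0.83 with set 3 and -0.46 without it. These 3 genes show how far a single array of set 3 moved a group mean. By contrast Fabp5, a fatty acid binding protein, had 7.01, 7.37 and 7.69 in LZ_high and 6.02, 6.61 and 5.74 in LZ_low (1.24 ± 0.35; weighted adjusted p = 0.049). Crisp3 had 5.81, 5.60 and 3.98 against 6.94, 6.57 and 6.59 (-1.57 ± 0.42; weighted adjusted p = 0.031). Its difference drew in part on the low LZ_high set 3, and was -0.99 without that array and -1.05 without set 3.

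Genes of G2 and mitosis formed the group with the highest median difference of the 44 lists examined. All 39 tested members of 40 had a higher mean in LZ_high, against 49.7% of all tested genes, and the median difference was 0.46 against -0.002 over all tested genes. The medians of sets 1, 2 and 3 were 0.55, 0.45 and 0.28. In 27 of 39 the 3 sets all had higher values in LZ_high (15.1% of all tested genes), and in 13 the groups did not overlap (4.32%). None was called by limma, 11 had an unadjusted p below 0.05 (1.75% of all tested genes in this direction), and 9 were called with array weights (0.464%). Without set 3 the median was 0.54 with all 39 higher (49.5% of all tested genes).

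Several members with the smallest p are given next. Most members named from a list, here and below, were picked by small p on these same arrays. Separated groups in such members follow largely from that choice. Cdc20, the activator of the anaphase-promoting complex, had 8.79, 9.43 and 9.02 in LZ_high and 8.05, 8.54 and 8.32 in LZ_low (0.78 ± 0.21; weighted adjusted p = 0.025). Ccna2, which encodes cyclin A2, had 9.81, 10.04 and 10.11 against 9.17, 9.64 and 9.38 (0.59 ± 0.15; weighted adjusted p = 0.034). Ccnb2, which encodes cyclin B2, had 10.29, 10.78 and 10.19 against 9.67, 10.08 and 9.92 (0.53 ± 0.19; weighted adjusted p = 0.028). For all 3 the lowest LZ_high array lay above the highest LZ_low array. Cks2 and the mitotic kinase gene Aurka were also apart between groups, at 0.58 ± 0.18 and 0.55 ± 0.18 (0.38 and 0.36 without set 3), but missed the weighted threshold.

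The proliferation marker Mki67 varied between sets by as much as between groups. It had 9.65, 10.41 and 9.79 in LZ_high and 8.64, 10.03 and 9.42 in LZ_low, a difference of 0.58 ± 0.33 that was positive in each of the 3 sets although the groups overlapped. Top2a, the topoisomerase of dividing cells, behaved alike, with 11.29, 11.38 and 10.85 against 10.85, 10.98 and 10.57 (0.37 ± 0.22). Hmmr, a spindle-associated hyaluronan receptor, had the largest difference of the list, 1.43 ± 0.61, with 7.92, 8.13 and 6.83 against 6.18, 7.38 and 5.03. For all 3 genes the set with the lowest value was the same in both affinity groups.

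Promoters of these genes are known to hold CCAAT boxes and the cell cycle homology region, whose core is TTTGAA, the element bound by the DREAM and MuvB complexes. RefSeq (GRCm38.p6) gave promoters for 32 of the 39 genes, 34 promoters in all, and the 250 bases before each start were searched on both strands. CCAAT was found in 76.5% of the 34 promoters, against 33.8% of all 32851 promoters and 34.8% of the 11260 promoters of tested genes. TTTGAA was found in 35.3%, against 16% and 10.5%, and both motifs together in 32.4%, against 5.55% and 4%. A match is a description of these letters and not evidence of binding. The promoters of Cdc20 (chr4:118437344-118437593), Ccnb2 (chr9:70421555-70421804), Mki67 (chr7:135716380-135716629) and Top2a (chr11:99024190-99024439) are shown because they hold both motifs and belong to members described above. All 4 lie on the minus strand and are written 5′ to 3′ in the direction of transcription, with CCAAT, with TTTGAA and with the reverse complement of either in capitals.
Cdc20: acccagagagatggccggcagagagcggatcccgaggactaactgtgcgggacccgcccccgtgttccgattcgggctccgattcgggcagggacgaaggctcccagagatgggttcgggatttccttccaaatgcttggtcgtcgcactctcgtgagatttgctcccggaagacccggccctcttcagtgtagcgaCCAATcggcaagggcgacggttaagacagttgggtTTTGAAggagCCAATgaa
Ccnb2: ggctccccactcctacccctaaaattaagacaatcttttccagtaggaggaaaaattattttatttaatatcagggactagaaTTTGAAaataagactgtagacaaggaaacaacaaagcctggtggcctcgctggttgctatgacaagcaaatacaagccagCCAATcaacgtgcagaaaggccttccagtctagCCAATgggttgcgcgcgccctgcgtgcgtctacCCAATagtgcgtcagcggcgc
Mki67: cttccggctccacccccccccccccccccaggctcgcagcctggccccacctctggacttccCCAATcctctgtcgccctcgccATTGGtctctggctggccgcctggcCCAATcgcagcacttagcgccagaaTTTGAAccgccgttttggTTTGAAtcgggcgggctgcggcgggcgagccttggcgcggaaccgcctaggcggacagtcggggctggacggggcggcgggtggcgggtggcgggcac
Top2a: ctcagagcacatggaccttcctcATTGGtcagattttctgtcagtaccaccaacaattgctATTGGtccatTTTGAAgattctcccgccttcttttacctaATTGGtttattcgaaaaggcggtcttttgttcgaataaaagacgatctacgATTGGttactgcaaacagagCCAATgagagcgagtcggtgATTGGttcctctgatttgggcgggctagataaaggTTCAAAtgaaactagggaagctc
The Cdc20 and Ccnb2 sequences hold CCAAT within the last bases before the start, and Mki67 and Top2a hold the box in both orientations.

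Genes of the G1/S transition and DNA replication were higher as well, but only in sets 1 and 2. Of 35 tested members 31 were higher, with a median of 0.23, and the set medians were 0.21, 0.42 and -0.004. The groups did not overlap for 8, all higher (4.32% of all tested genes), and array weights called 0 (0.464%). Rfc4, a subunit of the clamp loader, had 8.98, 9.23 and 9.97 in LZ_high and 8.39, 8.57 and 8.72 in LZ_low (0.83 ± 0.27), and Tyms, which makes thymidylate, had 8.85, 8.88 and 8.96 against 8.49, 7.92 and 8.11 (0.73 ± 0.21). Without set 3 the list's median was 0.35 with 34 of 35 higher, and without LZ_low set 2 alone it was 0.14.

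E2F factors are known to bind GC-rich sites in such promoters. The motif TTCCCGC or TTGGCGC was found in 36.1% of the 36 promoters of 31 G1/S genes, against 5.62% of all promoters and 9.65% of those of tested genes. CCAAT was found in 58.3% of them. The promoters of Cdc6, which loads the replicative helicase (chr11:98907901-98908150), and of Rpa2, a subunit of the single-strand binding complex (chr4:132768110-132768359), are shown as examples, both on the plus strand with the site, present as its reverse complement, in capitals.
Cdc6: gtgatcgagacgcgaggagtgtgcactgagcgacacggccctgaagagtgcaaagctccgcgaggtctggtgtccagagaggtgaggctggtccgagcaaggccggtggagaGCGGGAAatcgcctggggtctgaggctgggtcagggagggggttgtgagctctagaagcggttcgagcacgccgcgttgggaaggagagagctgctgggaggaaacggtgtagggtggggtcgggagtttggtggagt
Rpa2: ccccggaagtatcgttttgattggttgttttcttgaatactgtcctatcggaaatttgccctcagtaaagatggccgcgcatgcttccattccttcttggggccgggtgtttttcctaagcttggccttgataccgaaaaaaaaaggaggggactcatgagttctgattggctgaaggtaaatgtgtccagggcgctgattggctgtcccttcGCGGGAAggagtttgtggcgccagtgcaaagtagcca
Cdc6 had 8.54, 8.06 and 8.34 in LZ_high and 7.98, 7.43 and 8.29 in LZ_low (0.41 ± 0.23), and Rpa2 had 8.46, 8.36 and 8.06 against 8.0, 7.80 and 8.17 (0.30 ± 0.19). Both genes were higher in sets 1 and 2, and in set 3 Rpa2 was lower.

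The regulators of these programmes were less even. Of 29 tested cyclins, kinases, inhibitors and E2F genes 18 were higher, with a median of 0.09 that was 0.20 without set 3 and -0.04 without LZ_high set 1. Foxm1, the factor that drives mitotic genes, had 8.14, 8.21 and 8.45 in LZ_high and 7.87, 7.87 and 7.93 in LZ_low (0.38 ± 0.19), and cyclin E2 (Ccne2) had 8.96, 8.89 and 8.86 against 8.42, 8.06 and 6.75 (1.15 ± 0.44). Both were apart between groups, though Ccne2 drew on a low LZ_low set 3 and was 0.68 without set 3. Rbl2, the pocket protein of the repressive DREAM complex, was lower without overlap, with 7.39, 7.39 and 7.0 against 7.76, 7.60 and 7.50 (-0.36 ± 0.19).

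Ribosome biogenesis genes were higher in LZ_high, the programme that Myc is known to drive. Of 41 tested members 38 were higher, 25 of them in 3 of 3 sets (15.1% of all tested genes), with a median of 0.30 and set medians of 0.35, 0.37 and 0.20. The groups did not overlap for 13 (4.32% of all tested genes), 9 had an unadjusted p below 0.05 (1.75%), and 2 were called with weights (0.464%). Nop16, a nucleolar protein, had 9.62, 9.65 and 10.33 in LZ_high and 9.08, 8.60 and 9.11 in LZ_low (0.93 ± 0.28). Mrto4, a ribosomal stalk assembly factor, had 9.39, 9.58 and 9.11 against 8.83, 8.78 and 8.83 (0.55 ± 0.19; weighted adjusted p = 0.028). Wdr75, a component of the small subunit processome, had 9.46, 9.38 and 9.49 against 8.95, 8.71 and 8.94 (0.58 ± 0.16). All 3 genes were separated between groups, which follows largely from their choice by small p. The E-box CACGTG, the core site of Myc and Max, was found in 2.78% of the 36 promoters of this list, against 6.02% of all promoters and 8.45% of those of tested genes.

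Myc itself did not separate the groups. It had 9.09, 8.88 and 8.0 in LZ_high and 8.37, 8.19 and 8.74 in LZ_low, higher in sets 1 and 2 and lower in set 3, a difference of 0.22 ± 0.37 that became 0.71 without set 3. Across the Myc network 7 of 15 members were higher (median -0.05), but the median turned to 0.05 without set 3, with 9 of 15 higher. Mxd4 and Mlxip, a Myc antagonist and a glucose-responsive partner of Mlx, were lower at -0.68 and -0.82, the latter -0.36 without set 3.

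Metabolic lists differed in direction and size. All 22 tested genes of nucleotide synthesis and one-carbon metabolism were higher, with a median of 0.31 and set medians of 0.32, 0.37 and 0.31. Phgdh and Psat1, the first and second enzymes of serine synthesis, had differences of 0.62 ± 0.19 and 0.63 ± 0.25. Phgdh had 7.20, 7.39 and 7.03 in LZ_high and 6.70, 6.64 and 6.43 in LZ_low, and was called with weights (adjusted p = 0.028). Of 34 tested oxidative phosphorylation genes 31 were higher (median 0.17), led by Ndufab1 at 0.51 ± 0.21 and Ndufb6 at 0.46 ± 0.17 (0.30 without set 3), both subunits of complex I. The set medians of this list were 0.02, 0.31 and 0.18. In set 1 only 18 of the 34 were higher, and 12 were higher in 3 of 3 sets (15.1% of all tested genes). Glycolysis and hypoxia genes were higher for 14 of 20 (median 0.12) and amino acid transporters for 5 of 11 (-0.002). Aminoacyl-tRNA synthetase genes were higher for 14 of 21, with a median of 0.11. That median was 0.26 without set 3 and 0.000 without LZ_low set 2 alone. Among the transporters, Slc7a5, which imports large neutral amino acids, had 8.36, 8.13 and 8.31 against 7.66, 7.44 and 8.43, so it was higher in sets 1 and 2 only.

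**Figure D2:**
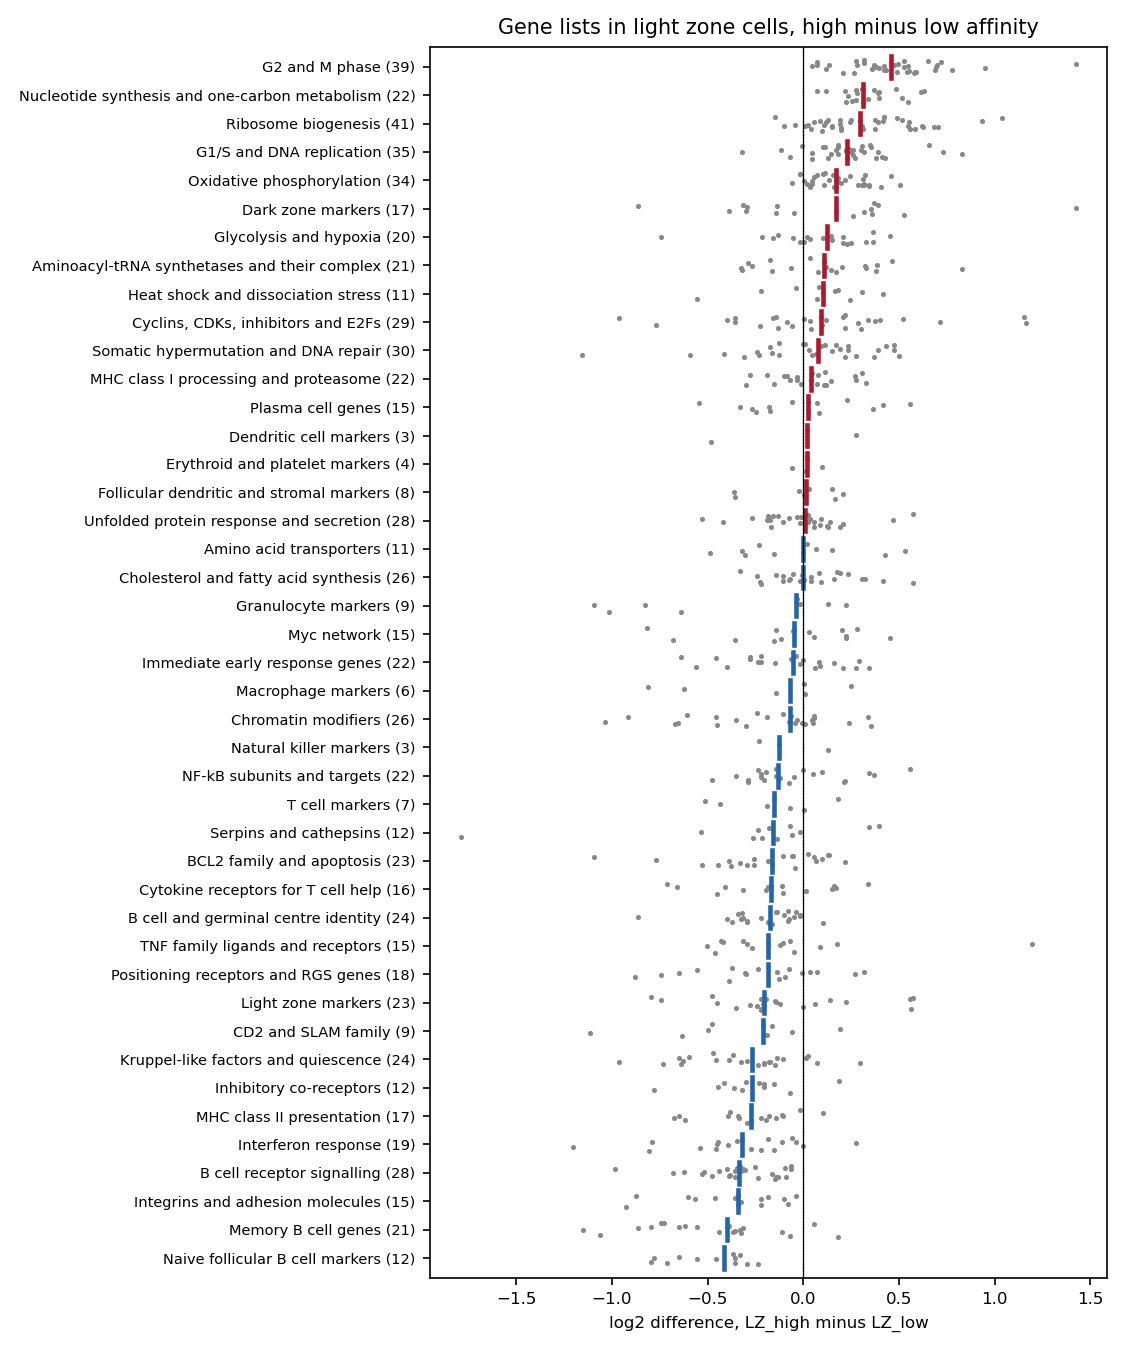
Log2 difference LZ_high minus LZ_low (x axis) of each tested member (grey points) of the gene lists (y axis, with the number of tested members in brackets), ordered by median (coloured bars). G2 and M phase stands highest with a median of 0.46, and naive follicular B cell markers lowest with -0.41.

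Memory B cell genes were lower in LZ_high as a list. Of 21 tested members of 25, 19 were lower (50.3% of all tested genes), 14 in 3 of 3 sets (17.2%), 10 with no overlap between groups (4.49%) and 8 at an unadjusted p below 0.05 (2.41%). The median was -0.40, with set medians of -0.39, -0.32 and -0.53, and 3 members were called with weights (0.455%). Ccr6 is counted in each of these, and leaving it out gave 18 of 20 lower and a median of -0.39. Without set 3 the median was -0.29 and all 21 were lower (50.5% of all tested genes). Besides Hhex, Ccr6 and Fcer2a, the list holds Bach2, a repressor that favours memory over plasma fate, with 8.24, 7.98 and 6.93 in LZ_high and 8.84, 8.52 and 8.40 in LZ_low (-0.86 ± 0.31). Tle3, a co-repressor partner of Hhex, had 7.27, 7.20 and 7.20 against 7.55, 7.57 and 8.40 (-0.62 ± 0.23). Cmah, which makes N-glycolylneuraminic acid, had 5.88, 6.05 and 5.93 against 6.42, 6.86 and 7.78 (-1.06 ± 0.38). All 3 were apart between groups, and for Tle3 and Cmah LZ_low set 3 was the highest array. The differences without set 3 were -0.56 for Bach2, -0.32 for Tle3 and -0.67 for Cmah.

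Naive follicular markers, which the memory list overlaps in 5 genes (Bcl2, Fcer2a, Gpr183, Klf2 and S1pr1), were lower for all 12 tested members, 11 of them in 3 of 3 sets, with a median of -0.41. Il4ra, the interleukin 4 receptor chain, had 9.41, 9.05 and 9.86 in LZ_high and 9.94, 9.94 and 10.58 in LZ_low (-0.71 ± 0.35). The co-receptor gene Cd72 had 9.74, 9.62 and 9.06 against 10.23, 9.98 and 10.56 (-0.78 ± 0.29, and -0.42 without set 3). Neither gene overlapped between groups or was called. S1pr1, the egress receptor, was lower at -0.65 ± 0.34 but only -0.14 without set 3, with LZ_low set 3 at 7.31 and the other LZ arrays between 5.56 and 6.12.

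Quiescence genes had lower values as well. Of 24 tested Kruppel-like factors and quiescence genes 20 were lower (median -0.27), 11 in 3 of 3 sets. Txnip, which restrains glucose uptake, had 9.17, 8.73 and 9.03 in LZ_high and 9.74, 9.30 and 9.67 in LZ_low (-0.60 ± 0.22; weighted adjusted p = 0.035), and Btg2, an antiproliferative gene, had 8.99, 8.95 and 8.73 against 9.36, 9.27 and 9.96 (-0.64 ± 0.30, and -0.34 without set 3). Both pairs of groups were apart. Cdkn1b, which encodes the cell cycle inhibitor p27, had a difference of -0.96 ± 0.70 that came from LZ_high set 3 (3.98, against 6.78 to 7.50 in the other LZ arrays) and was 0.11 without set 3.

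Genes that carry the B cell receptor signal had lower values in LZ_high throughout the list. All 28 tested members were lower, 20 in 3 of 3 sets (17.2% of all tested genes) and 8 with no overlap (4.49%), and the median was -0.34. Set 3 gave the largest shift (-0.53, against -0.24 and -0.23 in sets 1 and 2), and without it the median was -0.22 with 25 of 28 lower. Syk, the kinase that starts the signal, had 9.32, 8.73 and 8.78 in LZ_high and 9.63, 9.29 and 9.95 in LZ_low (-0.68 ± 0.26). Prkcb, which leads to NF-kB, had 9.91, 9.65 and 9.38 against 10.20, 10.01 and 9.93 (-0.40 ± 0.16). Fyn, a Src family kinase, had 9.37, 9.20 and 7.67 against 9.81, 9.54 and 9.83 (-0.98 ± 0.40). Groups were apart for Prkcb and Fyn, while those of Syk overlapped by a small margin, and without set 3 the Fyn difference was -0.39 and that of Syk -0.44. Inhibitory co-receptors were lower for 11 of 12 tested members (median -0.27), with Btla and Cblb at -0.44 and -0.42 (Cblb -0.14 without set 3).

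Adhesion genes were lower too. All 15 tested integrins and adhesion molecules were lower, 12 in 3 of 3 sets, with a median of -0.34 and set medians of -0.15, -0.18 and -0.53. Pecam1, the homophilic receptor CD31, had 8.34, 8.34 and 8.49 in LZ_high and 9.10, 9.18 and 9.52 in LZ_low (-0.87 ± 0.23; weighted adjusted p = 0.028). Icam2, a ligand of the integrin LFA-1, had 7.97, 7.78 and 7.95 against 8.41, 8.29 and 8.70 (-0.57 ± 0.16; weighted adjusted p = 0.034). Both genes had a narrow spread and no overlap. Of the CD2 and SLAM family 8 of 9 were lower (median -0.21, and -0.12 without set 3). After Cd2 came Slamf6, with 8.16, 7.99 and 7.71 against 8.45, 8.21 and 9.11 (-0.63 ± 0.23). Its groups did not overlap, but the difference was -0.25 without set 3. Positioning receptors and RGS genes were lower for 14 of 18 (median -0.19), among them the cannabinoid receptor gene Cnr2 at -0.88 ± 0.28 (-0.43 without set 3). The median of this list was -0.06 without LZ_low set 3 and -0.32 without LZ_low set 2. Ccr6, tested only because of LZ_low, is counted here, and leaving it out gave 13 of 17 lower and a median of -0.14.

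Antigen presentation through MHC class II showed a modest shift. Of 17 tested members 16 were lower, 13 in 3 of 3 sets, with a median of -0.27 and set medians of -0.36, -0.11 and -0.24. Leaving out 1 array moved the median to -0.12 (LZ_low set 3), -0.16 (LZ_high set 2) or -0.17 (LZ_high set 1). Ciita, the master activator of MHC class II genes, had 8.62, 8.15 and 8.03 in LZ_high and 9.13, 8.72 and 8.97 in LZ_low (-0.68 ± 0.23; weighted adjusted p = 0.041). Its groups were apart by a narrow margin. H2-Eb2, an MHC class II beta chain gene, had 9.34, 9.03 and 8.60 against 9.71, 9.64 and 9.56 (-0.65 ± 0.23), also without overlap, while the classical chain genes H2-Aa and H2-Ab1 differed by only -0.10 and -0.11. MHC class I and proteasome genes had a median of 0.04, with 12 of 22 higher, and -0.01 without LZ_low set 2.

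Genes of T cell help and activation had differences in both directions. Of 23 tested light zone markers 16 were lower (median -0.21). Ccr6, tested only because of LZ_low, is counted among them, and leaving it out gave 15 of 22 lower and a median of -0.20. Cd83 was lower, with 9.82, 9.47 and 9.76 in LZ_high and 10.12, 9.85 and 10.14 in LZ_low (-0.35 ± 0.19). Against this, Batf, a factor needed for class switching, was higher without overlap, with 8.49, 8.28 and 8.99 against 7.98, 8.03 and 8.06 (0.56 ± 0.20). Irf4, which responds to receptor and CD40 signals, had 7.05, 6.44 and 7.30 against 6.27, 6.32 and 6.53 (0.56 ± 0.29) and was higher in 3 of 3 sets with overlapping groups. NF-kB subunits and targets had a median of -0.13 (7 of 22 higher), and immediate early genes one of -0.05 (9 of 22 higher). Cytokine receptor genes were lower for 11 of 16 (median -0.17), with Il10ra at -0.66 ± 0.25 (-0.34 without set 3) and Il21r, the receptor for interleukin 21, at -0.45 ± 0.33. In the TNF family 12 of 15 were lower (median -0.19), with the lymphotoxin genes Lta and Ltb at -0.50 and -0.46, while 3 of 15, Tnfsf9 among them, were higher. These medians depended on single arrays. Without LZ_low set 3 they were -0.10 for light zone markers, -0.08 for NF-kB, 0.11 for immediate early genes, -0.04 for cytokine receptors and -0.08 for the TNF family. The light zone marker median was also -0.09 without LZ_high set 2 or LZ_low set 1, the NF-kB median -0.03 without LZ_high set 2, and the immediate early median 0.05 without LZ_high set 1.

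Interferon-response genes were lower for 18 of 19 (median -0.32), but the shift was mostly that of set 3 (-0.53, against -0.15 and -0.08). Ifit3 had 5.42, 5.26 and 4.64 in LZ_high and 5.81, 5.64 and 7.48 in LZ_low, so its difference of -1.20 ± 0.54 was -0.38 without set 3. Chromatin modifiers had a median of -0.07 that was 0.01 without set 3, and the largest differences, such as Kmt2d (-0.92 ± 0.43) and Crebbp (-0.67 ± 0.27), both histone-modifying enzymes, became -0.31 and -0.19. In each of these 3 genes an array of set 3 was the extreme value.

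Genes of B cell and germinal centre identity were lower for 23 of 24 tested members, by little (median -0.17, 10 in 3 of 3 sets). Bcl6, the master regulator of the germinal centre, had 10.05, 9.74 and 10.09 in LZ_high and 10.25, 9.90 and 10.27 in LZ_low (-0.18 ± 0.18), lower within each set although the groups overlapped. Pax5 and Ptprc differed by -0.08 ± 0.31 and -0.02 ± 0.27, and Foxo1 by -0.14 ± 0.20. Genes of the BCL2 family and apoptosis were lower for 16 of 23 (median -0.16, and -0.05 without set 3). Bcl2 had 5.78, 5.79 and 5.44 against 6.22, 5.92 and 5.85 (-0.33 ± 0.16) and did not overlap. The death inhibitor gene Cflar had -1.10 ± 0.73, almost all from LZ_high set 3 at 6.36, and -0.06 without set 3.

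Plasma cell genes had a median near 0 in the light zone, with 8 of 15 higher and a value of 0.02. Jchain, the joining chain of secreted polymeric antibody, had 10.20, 10.15 and 10.80 in LZ_high and 10.02, 9.50 and 10.38 in LZ_low (0.42 ± 0.25), and Xbp1, a factor for secretory expansion, differed by 0.02 ± 0.32, with the sign changing when arrays were centred on their medians. Genes of the unfolded protein response were higher for 14 of 28 (median 0.01), and those of somatic hypermutation and DNA repair for 19 of 30 (median 0.08, 0.24 without set 3 and -0.07 without LZ_high set 1). Cholesterol and fatty acid synthesis genes had a median of -0.002 (13 of 26 higher). The medians of the plasma cell, unfolded protein response and cholesterol lists changed sign under at least 1 of the other scalings. Dark zone markers were higher for 9 of 17 (median 0.17, and 0.05 without set 3). Their top 3, Hmmr, Ccnb2 and Polh (0.39), included 2 that are also in the G2 and M phase list, while Bach2 and Foxp1 (-0.39) were lowest. Heat shock and dissociation stress genes were higher for 8 of 11 (median 0.10).

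**Figure D3:**
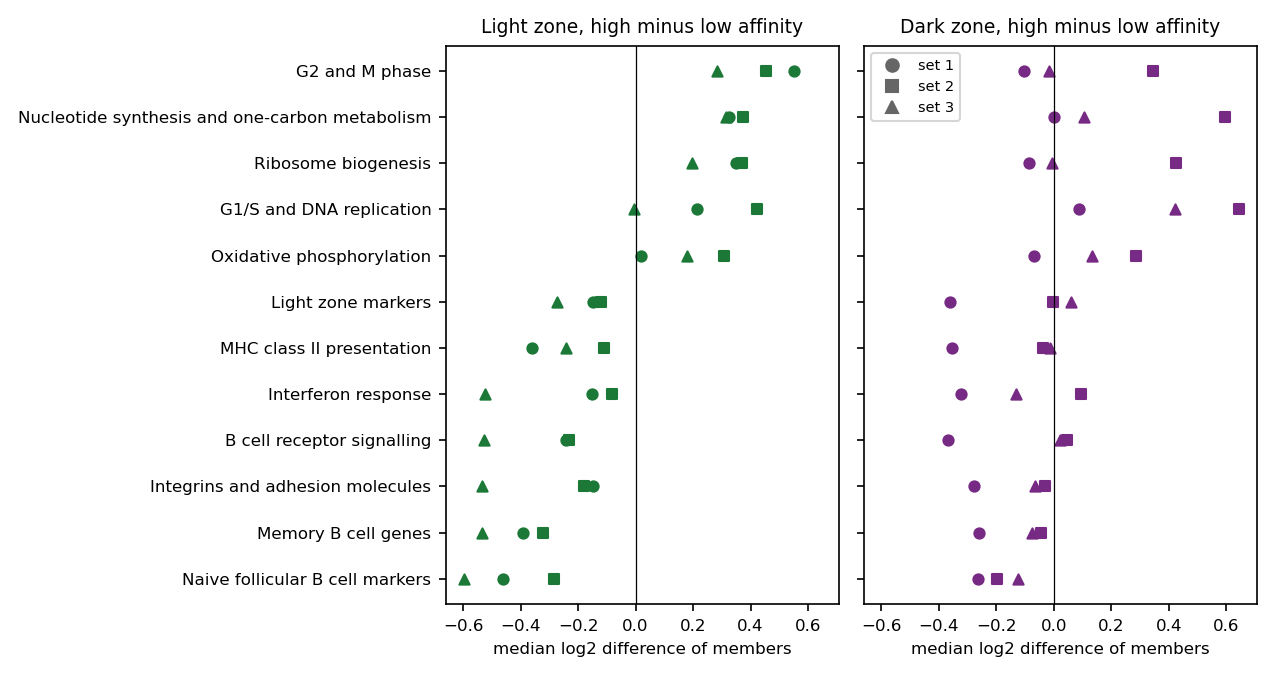
Median log2 difference of list members, high minus low affinity (x axes), for 12 gene lists (y axis) in light zone cells (left, green) and dark zone cells (right, purple), with 1 symbol for each matched set. In the light zone the G2 and M phase medians of all 3 sets lie between 0.28 and 0.55 and the memory medians between -0.53 and -0.32. In the dark zone the G2 and M phase medians lie on both sides of 0, at -0.105, 0.345 and -0.017 in sets 1 to 3. The dark zone memory medians lie below 0 in all 3 sets, at -0.261, -0.044 and -0.075.

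Markers of cells other than B cells varied with matched set and array. Of the 20 T cell markers 7 could be tested (median -0.15), with Cd3d, Cd3g and Cd4 too dim. For macrophages 6 of 17 were tested (median -0.07; Csf1r and Adgre1 too dim), for natural killer cells 3 of 10 (median -0.13; Ncr1 and Klrb1c too dim) and for granulocytes 9 of 15 (median -0.04; Ly6g too dim). The level of a list in an array was taken as the mean deviation of its tested markers from their 12-array means. In LZ_low set 3 it was 0.42 for T cell, 0.70 for macrophage and 0.77 for natural killer markers, the highest of the 6 LZ arrays, and 0.71 for granulocyte markers. The granulocyte level was 0.76 in LZ_high set 2 and 0.48 in LZ_low set 2, and between -0.80 and -0.54 in the remaining 3 LZ arrays. S100a9, a granulocyte calprotectin subunit, had 6.07, 10.35 and 6.45 in LZ_high and 6.47, 9.86 and 9.82 in LZ_low. Dendritic cell, follicular dendritic and stromal, and erythroid and platelet markers had medians of 0.02 each, and these signs changed when arrays were centred on their medians. Without set 3 the natural killer median turned to 0.18 and the granulocyte median to 0.05, and the T cell median was -0.08, while the G2 and M phase and memory medians kept their direction at 0.54 and -0.29. The part of these cells in the lower LZ_high values of Slc14a1, Igha, Ifit3, Tle3 and Cmah, all highest in LZ_low set 3, was not tested.

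**Figure D4:**
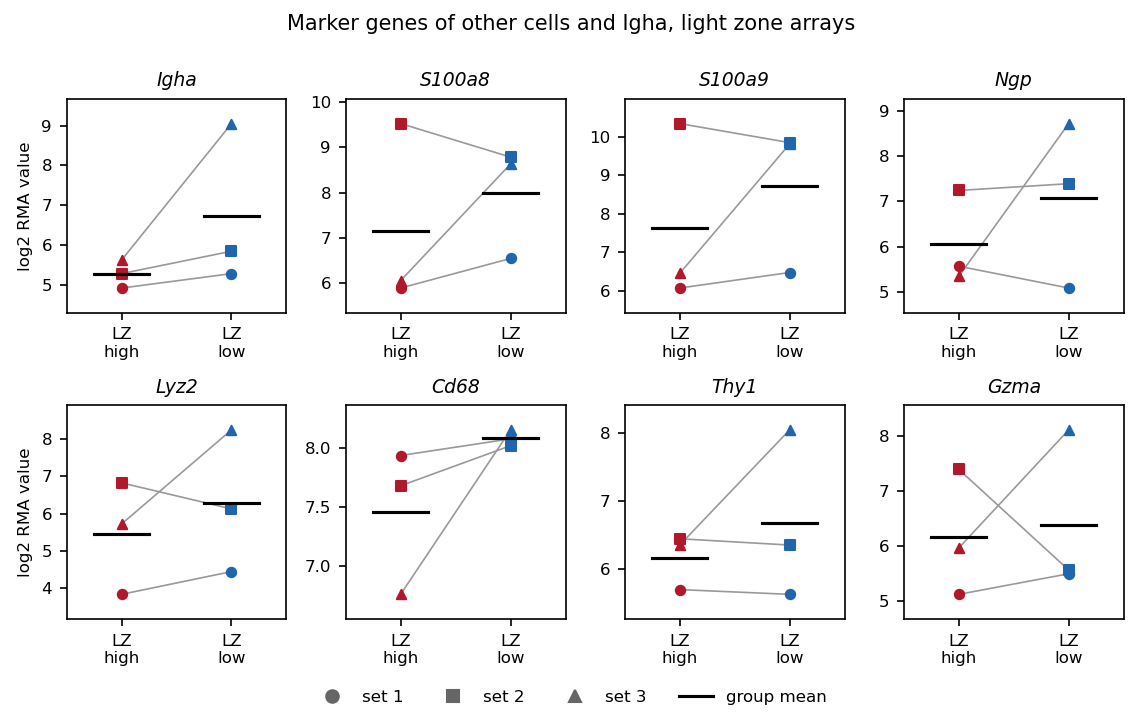
Log2 RMA value (y axes) of 7 marker genes of granulocytes, macrophages, T cells and natural killer cells, and of Igha, in the LZ_high and LZ_low arrays (x axes), with symbols for matched sets, grey lines joining the arrays of a set and black bars at the group means. Each y axis has its own range. LZ_low set 3 lies at 9.05 for Igha, and S100a9 lies at 10.35 and 9.86 in the set 2 arrays and at 6.07 and 6.47 in those of set 1.

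The same affinity contrast in the dark zone, which uses 6 other arrays from the same matched sets, gave 0 called genes (0%) and 247 at an unadjusted p below 0.05 (2.2%). Across the 11206 genes the light zone and dark zone differences correlated at 0.227 (Pearson) and 0.233 (Spearman), and 58.9% had the same sign. These are descriptions across genes, which are not independent replicates, and the zones share matched sets. The G2 and M phase list had a dark zone median of 0.07 with 24 of 39 higher (50.4% of all tested genes), against 0.46 with 39 of 39 in the light zone, and its dark zone set medians were -0.11, 0.35 and -0.02. Ribosome biogenesis had 0.08 against 0.30, memory genes -0.18 against -0.40, and B cell receptor signalling -0.12 against -0.34. G1/S genes went the other way, with 0.36 in the dark zone and 0.23 in the light zone, and plasma cell genes had 0.42 in the dark zone and 0.02 in the light zone.

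For single genes the difference between zones was tested by the interaction, the light zone difference minus the dark zone difference. limma called 0 genes (0%) for it, and 177 (1.58%) had an unadjusted p below 0.05, 85 (0.759%) with the larger value in the light zone and 92 (0.821%) with the larger value in the dark zone. All 3 sets were higher in the light zone and lower in the dark zone for 0.955% of genes, and the reverse for 0.723%. Fcer2a was lower at high affinity in both zones, by -0.80 ± 0.18 in the light zone and -1.11 ± 0.18 in the dark zone. Hhex had -1.15 in the light zone and -0.76 in the dark zone, and Cd2 had -1.11 and -0.54. Tnfsf9 had 1.20 in the light zone and 0.12 in the dark zone, and its interaction of 1.07 ± 0.41 was not called.

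The genes with the smallest interaction p included surface receptors. Cd69, an early activation antigen that retains cells in tissue, had 7.78, 6.96 and 7.86 in LZ_high and 7.07, 7.26 and 6.55 in LZ_low, a difference of 0.57 ± 0.32, against -1.19 ± 0.32 in the dark zone. Its interaction was 1.76 ± 0.45. Il6st, the shared receptor chain gp130, had -0.19 ± 0.22 in the light zone and 0.95 ± 0.22 in the dark zone, an interaction of -1.14 ± 0.32. Cdkal1, a tRNA-modifying enzyme, had 0.40 ± 0.14 in the light zone and -0.36 ± 0.14 in the dark zone. Antxr2 (0.44 and -0.77), Tmem43 (-0.55 and 0.42) and the coronin gene Coro2b (-0.81 and 0.44) also had opposite signs in the zones. The light zone differences of Antxr2, Coro2b, Cd69 and Il6st rested largely on set 3, and were 0.02, -0.41, 0.20 and 0.03 without it. Cd86, used in the sort, differed by -0.14 ± 0.15 in the light zone and by -0.81 ± 0.15 in the dark zone, with 10.89, 10.81 and 10.97 in LZ_high and 11.05, 10.92 and 11.12 in LZ_low. The Cd86 groups overlapped in the light zone and not in the dark zone.

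**Figure D5:**
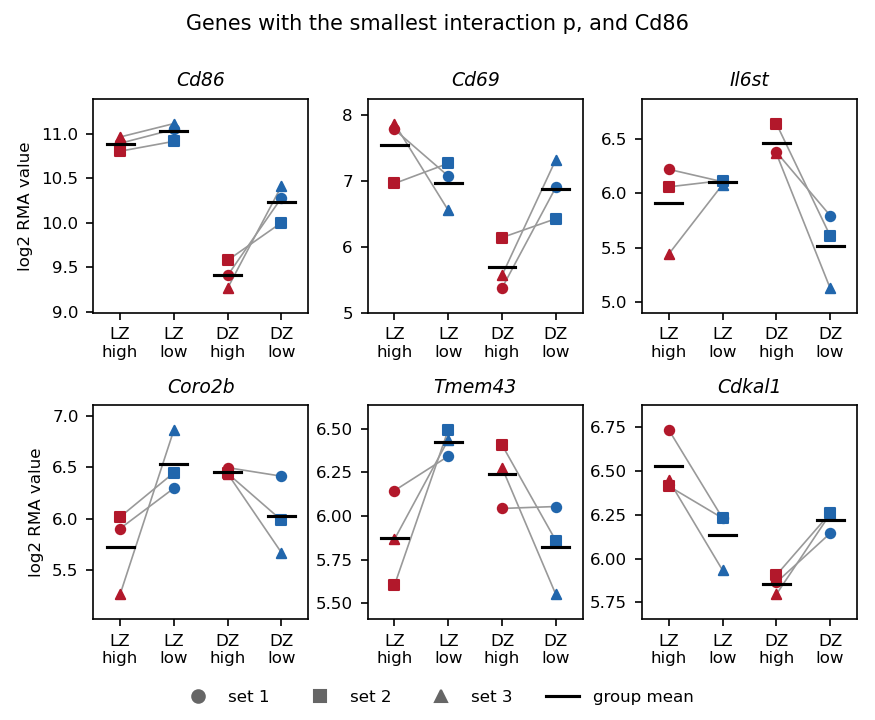
Log2 RMA value (y axes) of Cd86 and of 5 of the 6 genes with the smallest interaction p in the 4 groups (x axes), with symbols for matched sets, grey lines joining high and low affinity arrays of a set and black bars at group means. Cdkal1 has higher values in LZ_high than in LZ_low and lower values in DZ_high than in DZ_low in each set.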

How the data were processed

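The authors deposited a table of log2 values, from RMA, with probe sets as lines and the 12 samples as columns. RMA and mm8 are named per the submitters' processing notes, and other upstream steps are not given in the sources used here. RNA was amplified before labelling per the labels' protocols, and without scanner files or detection p-values the depth behind a value is unknown, so the number of arrays limits the precision.

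Of 28853 probe sets, 21789 had 1 gene symbol, 1621 several and 5443 none. A gene was taken as the probe set with 1 symbol and the highest mean over the 12 arrays (19938 genes). Genes with at least 3 arrays at or above that array's median (percentile 50) were tested, 11206 in all, and 8732 were too dim.

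A model of 4 group means on all 12 arrays was fitted by limma 3.58.1 (lmFit, then eBayes, under R 4.3.3). Tests were two-sided, and p-values were adjusted by Benjamini-Hochberg over all tested genes (threshold 0.05). The model was tested on simulated data. Matched sets come from a suffix in the sample descriptions, read as a shared day or batch. With group means removed, same-set LZ arrays correlated at 0.35 to 0.577 across genes and other LZ pairs at -0.507 to 0.207. The suffixes were taken to pair the arrays. Removing group means itself lowers the correlation of other pairs when same-set pairs correlate, so part of this contrast is arithmetic. Of the 18 same-set pairs over all 12 arrays, 17 lay above 0.1. DZ_high set 1 was an exception, at -0.071 with DZ_low set 1 and at 0.505 with DZ_low set 2. Pairs of a set 1 array with a set 2 array of another group lay at -0.074 to 0.505. Same-set pairs within these sets lay at -0.071 to 0.577. The check therefore mainly separated the remaining set, and did not clearly tell sets 1 and 2 apart.

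The members and the 44 gene lists were chosen with earlier results of these data known, and 1 of the lists is not reported here. Named genes are a fixed set of regulators, the 12 smallest p-values and 6 largest differences in each direction with 1 sign in all 3 sets, up to 6 members of each list with the smallest p, and the 3 smallest interaction p-values in each direction. Cdc6, Rpa2, Cdkn1b, Klf2, H2-Aa and H2-Ab1 were named outside this rule after their values were seen. Promoter sequences and starts are those of RefSeq (GRCm38.p6). Alternatives were fixed and random blocks, 2 filters, 2 scalings, another variance model, array weights, LZ arrays alone, mean probe sets, and leaving out each array or set 3.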

Additional observations from a re-analysis of the deposited data

Results flagged for a closer look

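In 5 named genes every matched set differed one way with affinity in the light zone and the other way in the dark zone, as 0.955% of tested genes did with higher and 0.723% with lower light zone values. High minus low affinity was 0.44 in the light zone and -0.77 in the dark zone for Antxr2, 0.40 and -0.36 for Cdkal1, and 1.40 and -0.29 for Nudt2. It was -0.81 and 0.44 for Coro2b, and -0.33 and 0.10 for the survival gene Bcl2. The light zone difference of Antxr2 was 0.02, 0.01 and 1.28 in sets 1 to 3, so it was near 0 in both other sets and came from set 3. Without set 3 the light zone difference was 0.39 for Nudt2 and -0.41 for Coro2b. limma's test of the interaction gave an adjusted p of 1 for each of the 5.

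The plasma cell list had a median of 0.02 in the light zone and 0.42 in the dark zone. Its light zone set medians were -0.07, -0.06 and -0.02, below 0 although the median of the mean differences was above it, and its dark zone set medians were 0.09, 0.61 and 0.45. The difference between zones was not tested for the list.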

How the results depend on the processing

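Direction was kept under every alternative run for 97 of the 108 named genes and for 26 of the 44 list medians, among them G2 and M phase, ribosome biogenesis and memory. Of the 108 genes, 39 had a light zone difference that moved by more than 1.5 times or turned without set 3, and 53 had one that did so when 1 array was left out. No alternative except array weights (103 genes) called a gene in the light zone, and none called one for the interaction; the replicate block on matched set changed no call. The count at an unadjusted p below 0.05 was 891 with the replicate block, 774 with a random block, 751 without a filter, 283 with the filter at percentile 75, 2280 with array weights, and 344 to 969 when 1 LZ array was left out. Genes with no overlap between groups numbered 1493 without a filter, 637 at percentile 75, 3790 without set 3 and 1514 to 2499 when 1 LZ array was left out, where fewer arrays make separation easier by construction. These counts and those of the dark zone, 0 to 1 called when 1 DZ array was left out (1 without DZ_low set 1), were recomputed by a choice made after seeing the data. The G2 and M phase median was 0.632 with array weights and 0.334 to 0.575 when 1 array was left out. The memory median was -0.508 at percentile 75, -0.289 without set 3, with the block or without it, and -0.497 to -0.352 when 1 array was left out, and the ribosome biogenesis median was then 0.211 to 0.326.

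With the sign reversed, array weights gave -0.053 for Cd69, 0.177 for Cdkn1b, 0.00 for Foxo1, 1.661 for S100a9 and -0.306 for Xbp1. Leaving out set 3, with the block or without it, gave 0.108 for Cdkn1b, 0.028 for Il6st, 0.046 for S100a9 and -0.108 for Xbp1, and centring gave -0.001 for Xbp1. With 1 array left out, ranges that crossed 0 were -1.592 to 0.13 for Cdkn1b, -1.748 to 0.071 for Cflar, -0.259 to 0.039 for H2-Aa, -0.258 to 0.034 for H2-Ab1, -0.35 to 0.038 for Il6st, -0.423 to 0.213 for Pax5, -0.215 to 0.13 for Ptprc and -0.301 to 0.275 for Xbp1. The cause was not tested.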
